A study of Solanum lycopersicum with 24 samples.

Results

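Transcript levels of jasmonate synthesis and signalling genes were followed in tomato hairy roots in which the transcription factor genes SlMYB41, SlMYB92 or SlWRKY71 had been overexpressed or knocked out. The genes were chosen by locus identifier, with earlier results of these data known, and the choice applied no threshold to measured values. The list holds 10 loci: the lipoxygenase LOXD (Solyc03g122340), a pair of allene oxide synthases AOS (Solyc04g079730 and Solyc11g069800), the allene oxide cyclase AOC (Solyc02g085730), the reductase OPR3 (Solyc07g007870), the receptor COI1 (Solyc05g052620), 3 JAZ repressors (Solyc07g042170, Solyc12g009220 and Solyc03g122190) and the transcription factor MYC2 (Solyc08g076930). Of these, 9 were among the 34688 loci of the table, and COI1 is not analysed here. A filter on low counts left 18297 loci for testing, 7 of them from the list. AOS Solyc04g079730 and JAZ Solyc12g009220 fell below that filter and are given by their counts.

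Jasmonates are lipid-derived hormones of wounding, defence and growth control, and in roots they restrain elongation. LOXD adds oxygen to linolenic acid in the plastid, AOS turns the product into an unstable allene oxide, AOC closes its ring, and OPR3 reduces the ring in the peroxisome before the side chain is shortened to jasmonic acid. The active conjugate with isoleucine joins COI1, part of a ubiquitin ligase, to JAZ proteins, which are then degraded. MYC2, held inactive by JAZ proteins until then, switches on response genes, among them JAZ genes and, in tomato and Arabidopsis, genes of jasmonate synthesis.

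All samples were hairy roots of the cultivar M82, which are roots grown from tissue transformed through a root-inducing bacterium. The overexpression groups, SlMYB92-OX, SlMYB41-OX and SlWRKY71-OX, carried the gene fused to 3xFLAG behind the constitutive CaMV 35S promoter. The knockout groups carried CRISPR/Cas9 with guide RNAs against SlMYB92 (SlMYB92-KO), SlMYB41 (SlMYB41-KO) or SlWRKY71, for which lines 5 and 4 were measured separately (SlWRKY71-KO5 and SlWRKY71-KO4). Control roots carried an empty vector. All roots were grown on 3% sucrose without light, at 25 °C and for 9 days, and 10 root tips of 1 cm were pooled per sample. Each of the 8 groups had 3 libraries, called here by their column numbers. As far as the labels say, each group is 1 line. The effect of a gene and a peculiarity of its line therefore cannot be told apart, and p-values measure only the spread between samples, which may be technical. In such bulk samples, fewer cells of a type and less RNA per cell cannot be told apart.

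Libraries held 4852464 to 15372241 estimated counts, so that 1 count was worth 0.0664 to 0.205 CPM (estimated counts over the library total, scaled as usual and corrected by TMM factors). In its own overexpression group, the locus taken for SlMYB92 (Solyc05g051550) stood at 48.3 to 87.6 CPM, against 0 to 0.188 CPM in control. The locus taken for SlMYB41 (Solyc02g079280) stood at 7.18 to 13.6 CPM in SlMYB41-OX and at 0 to 0.159 CPM in control. SlWRKY71 (Solyc02g071130) stood at 5.21, 41.5 and 26.2 CPM in SlWRKY71-OX libraries 2, 4 and 5, against 1.13 to 1.99 CPM in control. Library 2 of SlWRKY71-OX thus stood apart from the other libraries of its group and below SlMYB92-KO library 3, at 5.55 CPM, and without it the count of genes called against control was 1607 in place of 164. In the knockouts the target count was either too low in control or could include edited transcript, so that it does not check the labels: SlWRKY71 stood at 0.456 to 4.3 CPM in SlWRKY71-KO5 and at 1.06 to 3.15 CPM in SlWRKY71-KO4. Names of these target loci were recalled and matched to no table.

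Every call between pairs of groups involved a SlWRKY71 group. AOS Solyc11g069800, OPR3 and MYC2 were higher in SlWRKY71-OX than in the mean of both SlWRKY71 knockout lines, while LOXD, AOC and the tested JAZ genes did not pass the test there. That made 3 of 7 tested genes called, or 42.9%, all of them higher. The comparison called 30.9% of all tested genes, 17.9% as higher, so that with 7 genes the count stands near the background and is no result about the list as a whole. The median log2 fold change was 0.19 over the 7 genes and 0.03 over all genes.

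**Figure D1:**
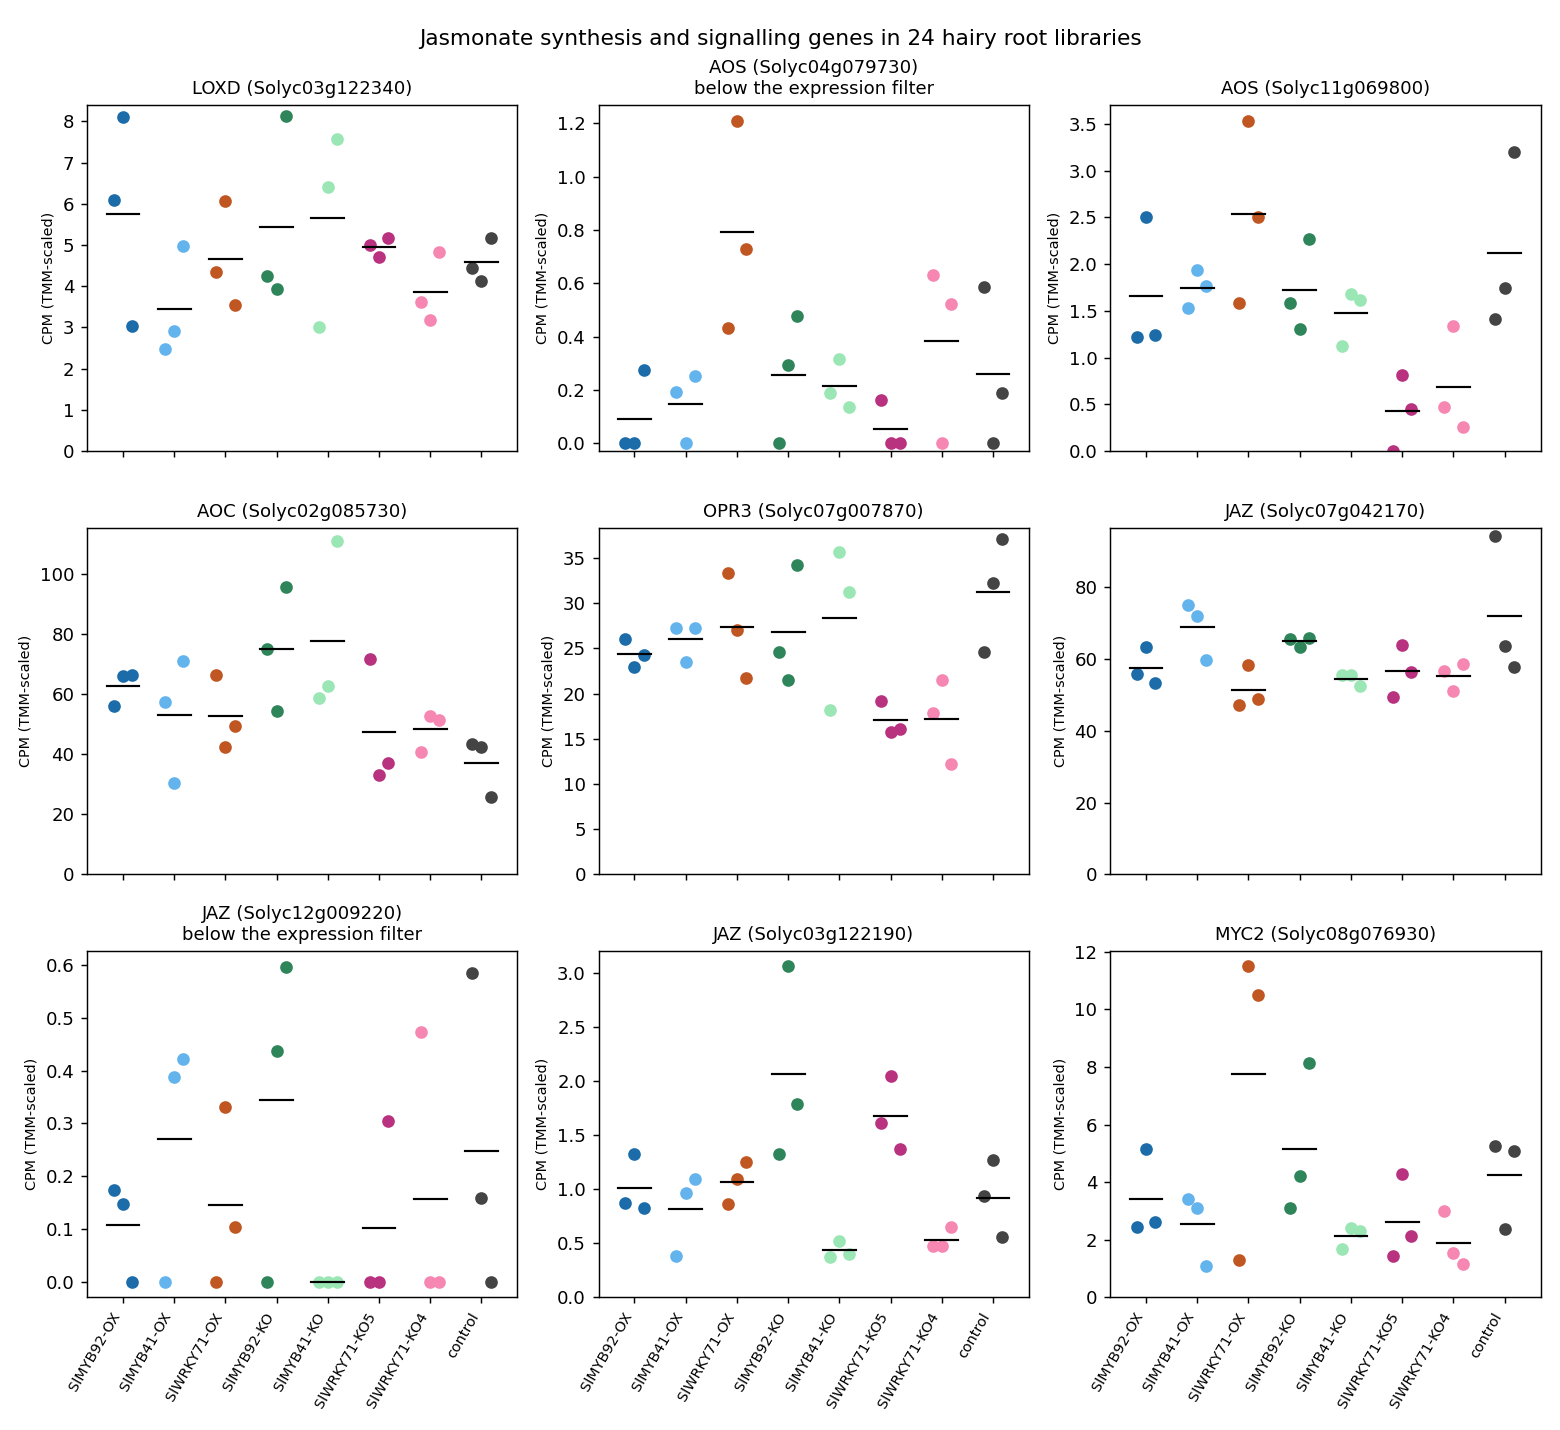
Level of the 9 measured loci in each library (CPM, TMM-scaled; points), with a line at the mean of the 3 libraries of each of the 8 groups on the horizontal axis. AOS Solyc11g069800 and OPR3 have their lowest means in SlWRKY71-KO5 and SlWRKY71-KO4, and MYC2 is at 11.5 and 10.5 CPM in SlWRKY71-OX libraries 4 and 5 but at 1.3 CPM in library 2.

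AOS Solyc11g069800, which catalyses the step committed to jasmonate, stood at 1.59, 3.53 and 2.5 CPM in SlWRKY71-OX libraries 2, 4 and 5. It stood at 0, 0.819 and 0.456 CPM in SlWRKY71-KO5 libraries 2, 3 and 5, and at 0.473, 1.34 and 0.26 CPM in SlWRKY71-KO4 libraries 2, 3 and 4. Every overexpression library lay above every library of both knockout lines, which 19.3% of all tested genes also showed in one direction or the other. The log2 fold change of SlWRKY71-OX over the mean of the knockout lines was 2.20 (SE 0.52, 95% interval 1.13 to 3.27), and its adjusted p was 0.0038 by edgeR's quasi-likelihood test. This call was kept in each fit that left out 1 of the 9 libraries, with log2 fold changes from 1.88 to 2.67 and adjusted p up to 0.039. It was also kept against either line alone, at 2.61 over SlWRKY71-KO5 (adjusted p = 0.012) and 1.79 over SlWRKY71-KO4 (adjusted p = 0.041). It passed the filter through libraries of 6 groups, none of them a SlWRKY71 knockout line. The counts behind it were low: 67 in the overexpression group, 7 in SlWRKY71-KO5 and 19 in SlWRKY71-KO4.

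OPR3, the reductase specific to the jasmonate precursor, stood at 33.3, 27 and 21.7 CPM in SlWRKY71-OX libraries 2, 4 and 5. It stood at 19.2, 15.8 and 16.1 CPM in SlWRKY71-KO5 libraries 2, 3 and 5, and at 17.8, 21.5 and 12.2 CPM in SlWRKY71-KO4 libraries 2, 3 and 4. The overexpression libraries lay above all knockout libraries, with the narrowest gap at 21.7 CPM in SlWRKY71-OX library 5 against 21.5 CPM in SlWRKY71-KO4 library 3. Of all tested genes, 19.3% also did not overlap in this comparison, in one direction or the other. The log2 fold change was 0.67 (SE 0.21, 95% interval 0.23 to 1.11; adjusted p = 0.021 by edgeR's quasi-likelihood test). OPR3 lost this call without SlWRKY71-OX library 2 (0.49, adjusted p = 0.096) and without library 4 (0.68, adjusted p = 0.063). Against SlWRKY71-KO5 alone it was at 0.68 (adjusted p = 0.055) and against SlWRKY71-KO4 alone at 0.66 (adjusted p = 0.065).

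MYC2, the bHLH activator of the jasmonate response, stood at 1.3, 11.5 and 10.5 CPM in SlWRKY71-OX libraries 2, 4 and 5. It stood at 1.45, 4.3 and 2.13 CPM in SlWRKY71-KO5 libraries 2, 3 and 5, and at 2.99, 1.54 and 1.17 CPM in SlWRKY71-KO4 libraries 2, 3 and 4. Libraries 4 and 5 of SlWRKY71-OX held the highest MYC2 levels of all 24 libraries, while library 2 lay within the range of the knockout lines. Library 2 was also the one with 5.21 CPM of SlWRKY71, against 41.5 and 26.2 CPM in libraries 4 and 5, and whether the levels of the pair are linked was not tested. The log2 fold change of MYC2 was 1.83 (SE 0.50, 95% interval 0.79 to 2.87; adjusted p = 0.0094 by edgeR's quasi-likelihood test). Without library 2 it was 2.31 (adjusted p = 0.00042). It lost its call without SlWRKY71-OX library 4 (1.47, adjusted p = 0.089), without library 5 (1.52, adjusted p = 0.073) and with SlWRKY71-KO5 alone as reference (1.6, adjusted p = 0.065). The count called was 1 of 7 without SlWRKY71-OX library 4, and 1 of 7 with SlWRKY71-KO5 alone as reference, in both cases AOS Solyc11g069800. Over all genes, these fits called 2440 and 4165, in place of 5652.

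**Figure D2:**
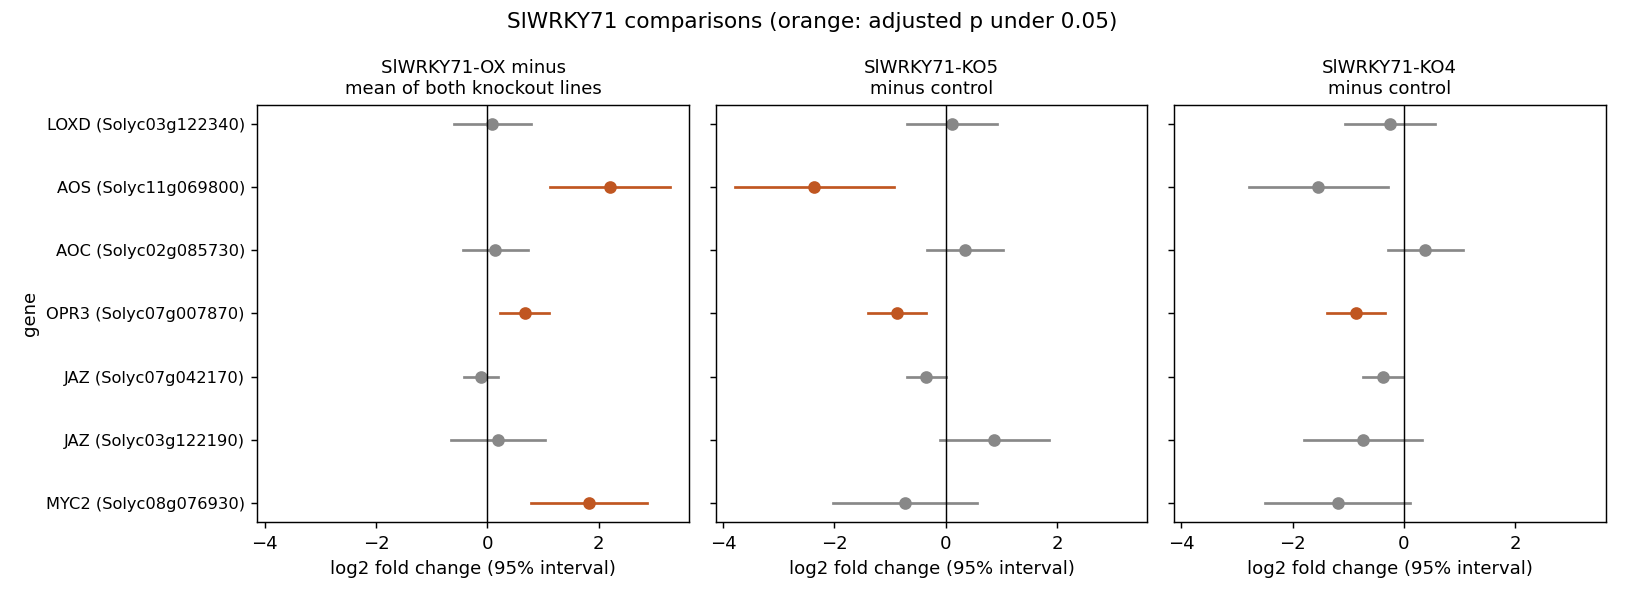
Log2 fold changes (points) with 95% intervals (lines) of the 7 tested genes, for SlWRKY71-OX minus the mean of both knockout lines and for SlWRKY71-KO5 and SlWRKY71-KO4 each minus control; orange marks an adjusted p under 0.05. AOS Solyc11g069800 is at 2.20, -2.36 and -1.54 and OPR3 at 0.67, -0.88 and -0.86, while LOXD stays between -0.25 and 0.11. The comparison of SlWRKY71-OX uses the same knockout libraries as the comparisons with control.

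The remaining tested genes did not pass between SlWRKY71-OX and the mean of the knockout lines. LOXD had a log2 fold change of 0.09 (95% interval -0.61 to 0.79) and AOC of 0.14 (-0.44 to 0.72). JAZ Solyc07g042170 was at -0.12 (-0.43 to 0.19) and JAZ Solyc03g122190 at 0.19 (-0.65 to 1.03). That mean joins lines on opposite sides. JAZ Solyc03g122190 stood at 0.868, 1.1 and 1.25 CPM in SlWRKY71-OX libraries 2, 4 and 5, above all SlWRKY71-KO4 libraries and below all SlWRKY71-KO5 libraries. The share of all genes without overlap against either line alone was not counted, and this gene had only 3 to 12 counts per library here. Neither difference of JAZ Solyc03g122190 passed. Its log2 fold change was 1.0 over SlWRKY71-KO4 alone (adjusted p = 0.16 by edgeR) and -0.62 over SlWRKY71-KO5 alone (adjusted p = 0.35). The intervals leave room for a change of LOXD or JAZ Solyc03g122190 by more than 1.5 times in either direction. For JAZ Solyc07g042170 the interval is the narrowest of the list.

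Against control, the SlWRKY71 knockout lines were the only groups with called members, OPR3 in both lines and AOS Solyc11g069800 in line 5. OPR3 averaged 17.0 ± 1.89 CPM in SlWRKY71-KO5 and 17.2 ± 4.66 CPM in SlWRKY71-KO4, against 31.3 ± 6.31 CPM in control (SD, n = 3 each). Its control libraries 2, 3 and 5 stood at 24.6, 32.2 and 37.1 CPM, above all 6 libraries of the SlWRKY71 knockout lines; 30.2% of all tested genes did not overlap between SlWRKY71-KO5 and control, and 34.5% between SlWRKY71-KO4 and control. The log2 fold changes were -0.88 (SE 0.25; adjusted p = 0.036 by edgeR's quasi-likelihood test) in SlWRKY71-KO5 and -0.86 (SE 0.25; adjusted p = 0.04) in SlWRKY71-KO4. AOS Solyc11g069800 averaged 0.425 ± 0.41 CPM in SlWRKY71-KO5 and 0.692 ± 0.574 CPM in SlWRKY71-KO4, against 2.12 ± 0.95 CPM in control, where libraries 2, 3 and 5 stood at 1.41, 1.75 and 3.2 CPM. Its log2 fold change was -2.36 (SE 0.69; adjusted p = 0.039) in SlWRKY71-KO5 and -1.54 (SE 0.60; adjusted p = 0.12) in SlWRKY71-KO4. Compared directly, SlWRKY71-KO5 and SlWRKY71-KO4 differed in OPR3 by -0.02 (95% interval -0.54 to 0.51) and in AOS Solyc11g069800 by -0.82 (-2.35 to 0.71). The list thus had 2 of 7 genes called in SlWRKY71-KO5, or 28.6%, where 7.79% of all tested genes were called, and 1 of 7 in SlWRKY71-KO4, or 14.3%, where 6.92% were called. All 3 calls were lower, in which direction 3.26% and 2.73% of all genes were called. OPR3 is counted in both lines against the same control libraries, and with 7 genes these counts are no result about the list as a whole.

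These calls against control rest on few libraries. The fits without 1 library that lost a call also called fewer genes over the whole table. They called 455 to 994 in SlWRKY71-KO5, in place of 1425, and 222 to 411 in SlWRKY71-KO4, in place of 1266. OPR3 in SlWRKY71-KO5 lost its call without knockout library 2, 3 or 5 (adjusted p of 0.053, 0.11 and 0.097) and without control library 3 or 5 (0.087 and 0.14), with log2 fold changes from -0.96 to -0.75 in the fits that lost it. OPR3 in SlWRKY71-KO4 lost it without knockout library 2 or 4 (0.096 and 0.2) and without control library 3 or 5 (0.093 and 0.16), between -0.89 and -0.68. AOS Solyc11g069800 in SlWRKY71-KO5 lost it without knockout library 2 or 5 (0.12 and 0.094) and without control library 3 or 5 (0.069 and 0.17), between -2.47 and -1.74. Against the mean of the 4 MYB groups in place of control, OPR3 was at -0.63 in SlWRKY71-KO5 (adjusted p = 0.072) and -0.62 in SlWRKY71-KO4 (adjusted p = 0.09), and AOS Solyc11g069800 was at -1.99 in SlWRKY71-KO5 (adjusted p = 0.055). With DESeq2 all 3 calls were kept, with adjusted p from 0.013 to 0.017. In SlWRKY71-KO4, AOS Solyc11g069800 ranged from -2.51 without knockout library 3 (adjusted p = 0.041), the only such fit in which it passed, to -1.11 without control library 5 (adjusted p = 0.4).

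In SlWRKY71-OX, 0 of 7 genes passed against control with edgeR or with DESeq2. By edgeR, 0.896% of all genes were called after adjustment, and the share at an unadjusted p was not counted. Of the 7 genes, 1 had an unadjusted p under 0.05. That gene was JAZ Solyc07g042170, at 51.4 ± 5.93 CPM in SlWRKY71-OX and 71.8 ± 19.6 CPM in control (SD, n = 3 each; log2 fold change -0.48, SE 0.17, adjusted p = 0.19 by edgeR's quasi-likelihood test). MYC2 averaged 7.76 ± 5.62 CPM in SlWRKY71-OX and 4.24 ± 1.61 CPM in control, where libraries 2, 3 and 5 stood at 5.27, 2.38 and 5.07 CPM. Its log2 fold change was 0.87 (SE 0.58; adjusted p = 0.5), and 1.34 without SlWRKY71-OX library 2 (adjusted p = 0.097). OPR3 and AOS Solyc11g069800 were at -0.20 (95% interval -0.71 to 0.31) and 0.25 (-0.89 to 1.40). The comparisons of SlWRKY71-OX and of the knockout lines with control share the control libraries. Likewise, SlWRKY71-OX against the mean of the knockout lines and the knockout lines against control share the knockout libraries, so their calls are not independent.

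**Figure D3:**
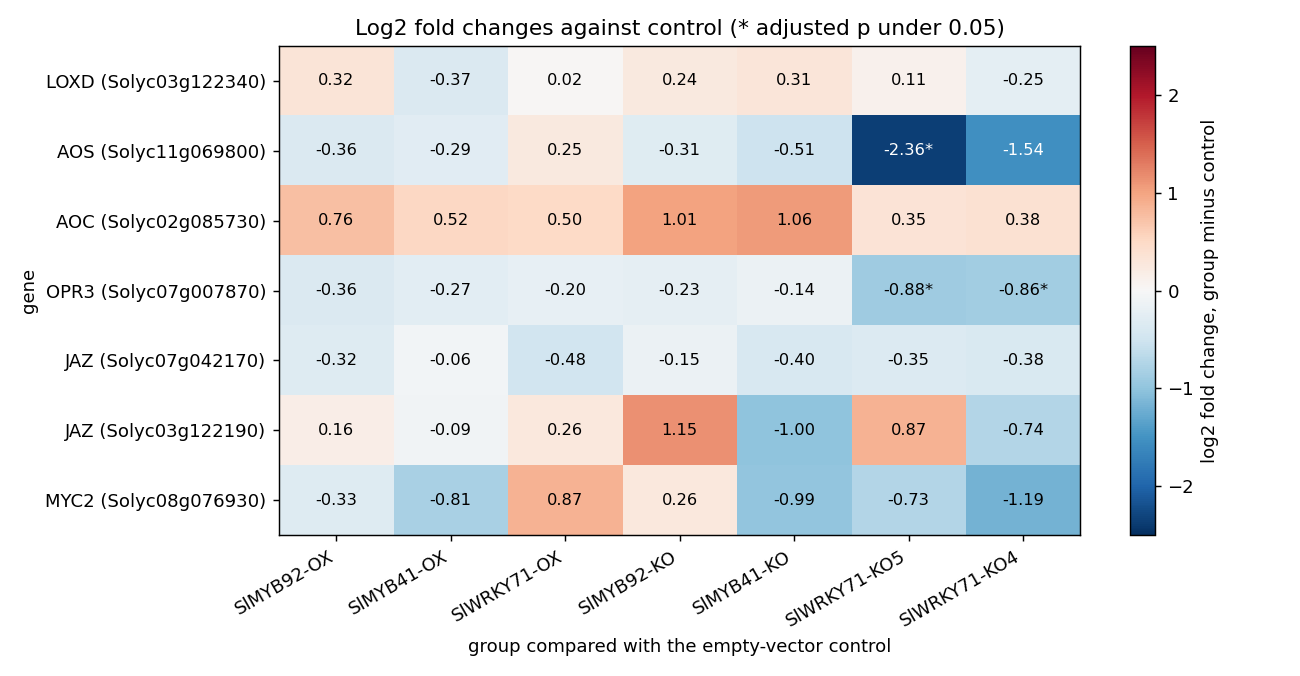
Log2 fold changes of the 7 tested genes (rows) in each group against the empty-vector control (columns; colour and printed value), with an asterisk at an adjusted p under 0.05. The 3 marked cells are OPR3 in both SlWRKY71 knockout lines and AOS Solyc11g069800 in SlWRKY71-KO5; AOC is positive and OPR3 and JAZ Solyc07g042170 are negative in all 7 columns, which share 1 set of control libraries.

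AOC, the cyclase that fixes the stereochemistry of the precursor, had its lowest group mean in control and its highest in the MYB knockouts. It stood at 74.8, 54.2 and 95.7 CPM in SlMYB92-KO libraries 2, 3 and 5, at 58.8, 62.6 and 111 CPM in SlMYB41-KO libraries 2, 3 and 5, and at 43.5, 42.2 and 25.8 CPM in control libraries 2, 3 and 5. Every library of both MYB knockouts lay above every control library, as did those of SlMYB92-OX, at 56, 66.1 and 66.2 CPM. Of all tested genes, 16.8% did not overlap between SlMYB92-KO and control, 26.3% between SlMYB41-KO and control and 25.3% between SlMYB92-OX and control. The log2 fold changes were 1.06 in SlMYB41-KO (SE 0.33; adjusted p = 0.061 by edgeR's quasi-likelihood test), 1.01 in SlMYB92-KO (SE 0.33; adjusted p = 0.12) and 0.76 in SlMYB92-OX (SE 0.33; adjusted p = 0.23), and none of these passed. In SlMYB41-KO, AOC passed with DESeq2 (1.06, adjusted p = 0.025) and with no filter on low counts (1.09, adjusted p = 0.036). Leaving out 1 library gave 0.71 to 1.22 there, lowest without SlMYB41-KO library 5. Against the mean of the groups altered in other genes, in place of control, AOC was at 0.46 in SlMYB41-KO (adjusted p = 0.42), 0.45 in SlMYB92-KO (0.32) and 0.19 in SlMYB92-OX (0.88). In the other 4 groups AOC averaged 47.3 to 52.9 CPM and overlapped control, at 37.2 ± 9.83 CPM.

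The JAZ genes encode the repressors that COI1 removes. JAZ Solyc03g122190 was the 1 gene of 7 that passed the test of any difference among the 8 groups (edgeR quasi-likelihood F = 4.43, adjusted p = 0.02). That test called 25.7% of all genes. It stood at 1.33, 3.07 and 1.79 CPM in SlMYB92-KO libraries 2, 3 and 5, and at 0.375, 0.525 and 0.405 CPM in SlMYB41-KO libraries 2, 3 and 5. It stood at 1.61, 2.05 and 1.37 CPM in SlWRKY71-KO5 libraries 2, 3 and 5, at 0.473, 0.48 and 0.651 CPM in SlWRKY71-KO4 libraries 2, 3 and 4, and at 0.937, 1.27 and 0.564 CPM in control libraries 2, 3 and 5. The libraries of SlMYB92-KO and SlWRKY71-KO5 lay above all control libraries, and those of SlMYB41-KO lay below them, whereas SlWRKY71-KO4 overlapped control. Of all tested genes, 16.8%, 30.2% and 26.3% did not overlap with control in SlMYB92-KO, SlWRKY71-KO5 and SlMYB41-KO.

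Counts of JAZ Solyc03g122190 ran only from 2 to 21 per library, and it passed the filter through 6 libraries in 4 groups, a route that by its construction favours genes that differ between groups. SlMYB92-KO and SlMYB41-KO differed by 2.15 on the log2 scale (SE 0.50, 95% interval 1.11 to 3.20; adjusted p = 0.069 by edgeR's quasi-likelihood test), in a comparison that called 0.355% of all genes. SlWRKY71-KO5 and SlWRKY71-KO4, knockout lines of the same gene, differed by 1.61 (SE 0.50, 95% interval 0.57 to 2.65; adjusted p = 0.85), where 0.0547% of all genes were called. Against control it was at 1.15 in SlMYB92-KO (adjusted p = 0.26), -1.0 in SlMYB41-KO (0.3), 0.87 in SlWRKY71-KO5 (0.26) and -0.74 in SlWRKY71-KO4 (0.38). Against the mean of the SlMYB41 and SlWRKY71 groups in place of control, it passed in SlMYB92-KO (1.29, adjusted p = 0.027). The test across groups lost it without SlMYB92-KO library 3 (adjusted p = 0.068) and with no filter (0.07), where MYC2 passed in its place (0.045).

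JAZ Solyc07g042170 had 296 to 986 counts per library and varied little, from 47.1 to 94.2 CPM. Its control libraries 2, 3 and 5 stood at 94.2, 63.7 and 57.7 CPM, and control library 2 was the highest of all 24. All 7 log2 fold changes against control were negative, from -0.48 in SlWRKY71-OX to -0.06 in SlMYB41-OX, with adjusted p from 0.17 to 0.97. Without control library 2 they lay between -0.24 in SlWRKY71-OX and 0.19 in SlMYB41-OX, and that in SlMYB92-KO was also positive, at 0.11. JAZ Solyc12g009220 had 32 counts over all libraries and none in 12 of the 24. It had 0 counts in SlMYB41-KO (95% Poisson interval 0 to 3.69 counts), where 3 counts over the group would be 0.135 CPM. Control had 6 counts, or 0.236 CPM (95% Poisson interval 2.2 to 13.1 counts). Below the filter, JAZ Solyc12g009220 was not tested in the main fit, and the intervals cover counting error only.

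LOXD, which supplies the first oxygenated intermediate, showed no difference between groups that passed the test. Group means ran from 5.75 ± 2.56 CPM in SlMYB92-OX to 3.46 ± 1.34 CPM in SlMYB41-OX, with control at 4.58 ± 0.533 CPM (SD, n = 3 each). Single libraries spread from 2.48 CPM in SlMYB41-OX library 2 to 8.12 CPM in SlMYB92-KO library 5, and the test across groups gave F = 0.814 (adjusted p = 0.7 by edgeR's quasi-likelihood test). The 7 log2 fold changes against control lay between -0.37 and 0.32, and their 95% intervals between -1.19 and 1.12. LOXD and JAZ Solyc03g122190 are near neighbours on chromosome 3, with 13 loci between them in the order of the identifiers.

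AOS Solyc04g079730 had 54 counts in all, too few for the test. It had 3, 11 and 7 counts in SlWRKY71-OX libraries 2, 4 and 5, or 0.821 CPM over the group (95% Poisson interval 13 to 32.1 counts). SlWRKY71-KO5 had 1 count in all (0.0253 to 5.57 counts), SlWRKY71-KO4 had 8 (3.45 to 15.8) and control 7 (2.81 to 14.4), or 0.0566, 0.327 and 0.275 CPM. Its highest library was SlWRKY71-OX library 4, at 1.21 CPM, which was also the highest library of AOS Solyc11g069800. Reads are divided between close copies by estimation, so the AOS loci may not be separate observations here. Library 2 of SlWRKY71-OX, at 0.434 CPM of AOS Solyc04g079730, lay within the range of SlWRKY71-KO4 and of control. With no filter on low counts, its log2 fold change of SlWRKY71-OX over the mean of the knockout lines was 2.27 (adjusted p = 0.12).

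No gene of the list was called by edgeR in a comparison of a SlMYB41 or SlMYB92 group with control or between these groups. Backgrounds in these comparisons are shares of all genes called by edgeR after adjustment. They are no measure for counts by DESeq2 or at an unadjusted p, and shares at an unadjusted p were not counted. With SlMYB92 overexpressed, 0 of 7 genes passed against control with edgeR or DESeq2, and 1 had an unadjusted p under 0.05 (background 3.28%). With SlMYB41 overexpressed, these counts were 0, 0 and 0 against a background of 0.978%. SlMYB92-KO had 0 with both tools and 2 at an unadjusted p under 0.05 (background 2.87%), and SlMYB41-KO had 0 with edgeR, 1 with DESeq2 and 2 unadjusted (background 5.11%). Median log2 fold changes of the 7 genes were -0.32 in SlMYB92-OX, -0.27 in SlMYB41-OX, 0.24 in SlMYB92-KO and -0.40 in SlMYB41-KO, against 0.01 to 0.03 over all genes.

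Backgrounds here, too, are shares of all genes called by edgeR after adjustment. Overexpression against knockout of the same MYB gene gave 0 of 7 with edgeR and DESeq2 for SlMYB92, with 1 unadjusted (background 7.77%), and 0, 0 and 0 for SlMYB41 (background 3.2%). The unadjusted one was JAZ Solyc03g122190, at 1.01 ± 0.277 CPM in SlMYB92-OX and 2.06 ± 0.90 CPM in SlMYB92-KO (SD, n = 3 each; log2 fold change -0.99, SE 0.46, adjusted p = 0.21 by edgeR's quasi-likelihood test). Without SlMYB92-KO library 3, JAZ Solyc03g122190 was at -0.60 there, and at 0.75 in SlMYB92-KO against control. SlMYB92-OX against SlMYB41-OX gave 0 of 7 with edgeR and DESeq2 and 0 unadjusted (background 0.552%). In that comparison LOXD had the lowest adjusted p, with 5.75 ± 2.56 CPM in SlMYB92-OX and 3.46 ± 1.34 CPM in SlMYB41-OX (log2 fold change 0.69, SE 0.40, adjusted p = 0.64). SlMYB92-KO against SlMYB41-KO, and SlWRKY71-KO5 against SlWRKY71-KO4, each gave 0 with both tools and 1 unadjusted, the JAZ gene already described. MYC2 stood at 3.12, 4.23 and 8.12 CPM in SlMYB92-KO and at 1.69, 2.42 and 2.29 CPM in SlMYB41-KO, without overlap, as did 16.4% of all genes in one direction or the other (log2 fold change 1.24, SE 0.62, adjusted p = 0.43).

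The order of group means placed SlWRKY71-OX first for MYC2 and AOS Solyc11g069800, and the SlWRKY71 knockout lines last for OPR3 and AOS Solyc11g069800. For OPR3 the libraries of the other 6 groups, with means of 24.4 to 31.3 CPM, overlapped in every pair of groups. The same was true of AOS Solyc11g069800, with means of 1.48 to 2.54 CPM in those 6 groups. MYC2 group means ran from 1.90 CPM in SlWRKY71-KO4 to 7.76 CPM in SlWRKY71-OX, and its neighbours in that order overlapped throughout. In the test across the 8 groups these genes did not pass, and edgeR gave adjusted p of 0.058 for OPR3, 0.068 for AOS Solyc11g069800 and 0.083 for MYC2. Without SlWRKY71-OX library 2 all 3 passed beside JAZ Solyc03g122190 (0.04, 0.04 and 0.0057), and with DESeq2 they passed too (0.011, 0.0084 and 0.028). The count over all genes was also higher then, at 6701 without that library and 6935 with DESeq2, against 4705.

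The tested genes did not move as 1 block from library to library. Over the 24 libraries, the 21 pairs of tested genes had Pearson correlations of log2 CPM from -0.24 to 0.69, with a median of 0.20, and 2 pairs were above 0.5. OPR3 and AOS Solyc11g069800 were the most alike, at r = 0.69 (Spearman 0.69), and AOS Solyc11g069800 ranked 676 among 18296 genes by likeness to OPR3. This fell to 0.58 over the 15 libraries without the SlWRKY71 groups and to 0.28 for deviations from the group means. MYC2 and AOS Solyc11g069800 were at 0.57, and at 0.53 for deviations from the group means. AOC had correlations with the other tested genes from -0.24 with JAZ Solyc07g042170 to 0.34 with LOXD. These libraries share depth and group, and the correlations are descriptions. The loci most like MYC2 in the whole table, Solyc11g039910 (r = 0.93) and Solyc08g008040 (r = 0.92), carry no name in the sources used here.

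**Figure D4:**
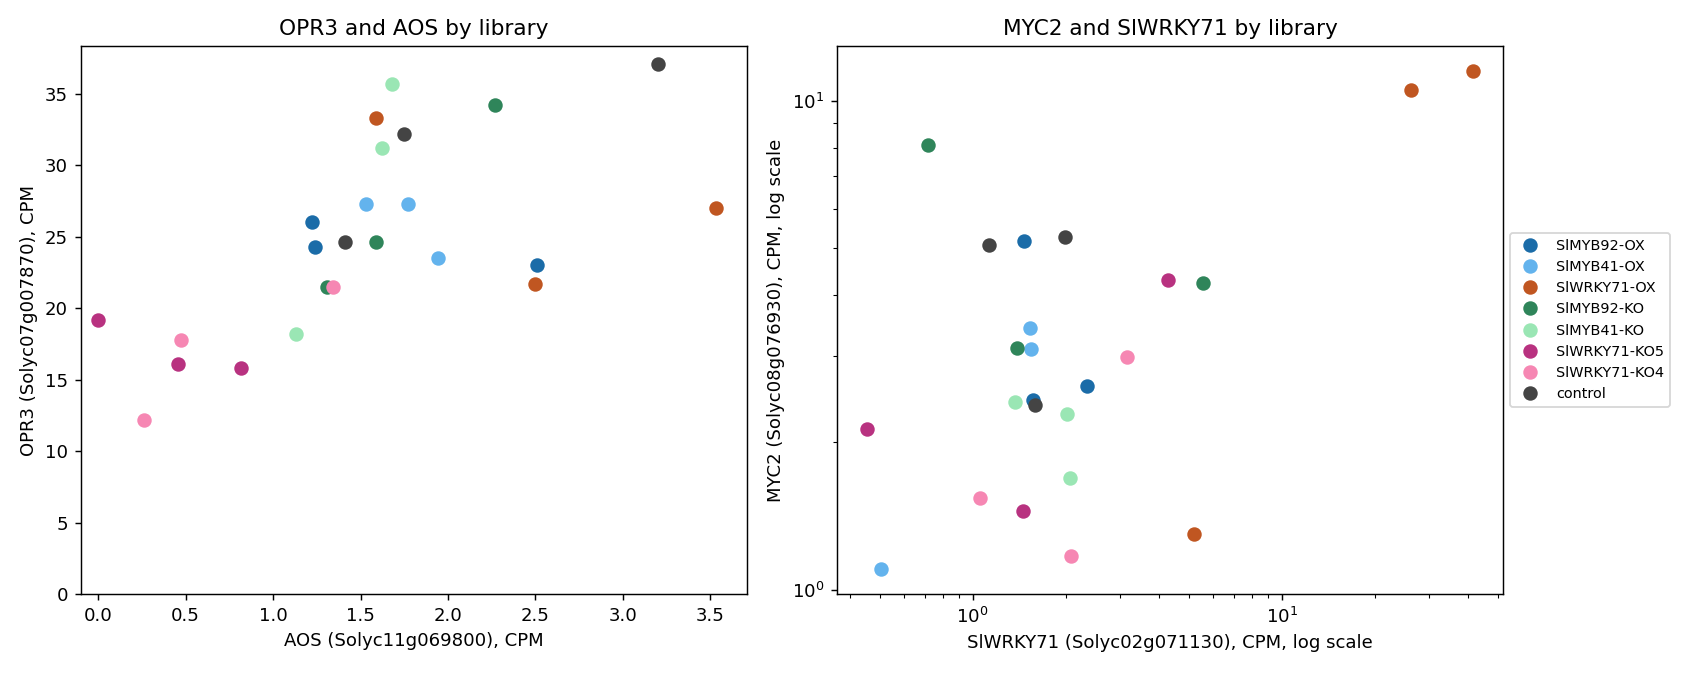
Each point is 1 of 24 libraries, coloured by group: on the left OPR3 against AOS Solyc11g069800 (CPM), on the right MYC2 against the SlWRKY71 locus (CPM, both axes logarithmic). Of the 6 SlWRKY71 knockout libraries, 5 lie at the lower left of the left panel, and SlWRKY71-KO4 library 3 lies at 1.34 CPM of AOS among other groups. SlWRKY71-OX libraries 4 and 5 lie alone at the upper right of the right panel, with library 2 at 5.21 CPM of SlWRKY71 and 1.3 CPM of MYC2.

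A further 28 loci had been recalled as jasmonate pathway genes, but the sources used here pair none of them with a name, so they are given only by counts. Of these, 24 were in the table and 15 were tested. In SlWRKY71-OX against the mean of the knockout lines 3 rose and 1 fell, 4 of 15 beside a background of 30.9% (17.9% higher and 13% lower). In SlMYB92-OX, 1 was higher than in control, 1 higher than in SlMYB92-KO and 1 higher than in SlMYB41-OX, and none was lower, beside backgrounds of 3.28%, 7.77% and 0.552%. None of the 15 was called in the other 6 comparisons with control, beside backgrounds of 0.896% to 7.79%. Nor was any called between SlMYB41-OX and SlMYB41-KO, between the MYB knockouts or between the SlWRKY71 knockout lines, beside backgrounds of 3.2%, 0.355% and 0.0547%. Across the 8 groups 5 of 15 were called, where 25.7% of all tested genes were.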

How the data were processed

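RNA was bound by its poly(A) tail and sequenced from unstranded, randomly primed libraries as paired reads of 75 bp, per the labels' protocols. The authors deposited estimated counts, 1 row per locus, and the submitters' processing notes list kallisto 0.46.2 and Trim Galore 0.6.6; which annotation served for counting is not given there. Pseudoalignment divides reads between close copies by estimation, so the AOS and JAZ genes are uncertain there, and overlapping antisense genes cannot be separated.

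Estimated counts (6.18% not whole at a tolerance of 1e-09) were rounded. A single quasi-likelihood model of the 24 libraries was made in R 4.3.3 with edgeR 4.0.16 and limma 3.58.1, using TMM scaling, filterByExpr and a mean per group; p-values were adjusted by Benjamini-Hochberg over 18297 genes, with 0.05 as the threshold. There were 13 comparisons of groups, 7 of them with control, and 1 test across the 8 groups. The script was tested on simulated data. Standard errors are the log2 fold change divided by the square root of F, and intervals are 95%. DESeq2 was version 1.42.0. Alternatives were scaling, filter, DESeq2, only the groups compared, a replicate block, another reference group and leaving out each library; each SlWRKY71 line alone as reference was added after seeing the data. The text names every list member, the target loci and the 2 loci most like MYC2.

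Columns were matched to groups by name. Numbers in the column names (2 to 5) are not the labels' replicate numbers. Replicate pairs differed beyond counting noise (chi-square per degree of freedom from 6.56 to 46.1). The list and further loci were chosen with earlier results of these data known. Gene names come from that choice, and 0 identifiers were found in the RefSeq table. For 9 of the 10 loci, a symbol chosen for the match, such as AOS2, JAZ2 or SLJAZ3, lies there on the chromosome the identifier gives. Such a match does not pair an identifier with a name. Root markers were therefore not checked. Sequences of the loci were not used here.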

Additional observations from a re-analysis of the deposited data

How the results depend on the processing

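Directions of the 6 calls between groups held under all alternatives run, while most calls changed under some. Without SlWRKY71-OX library 2, the test across the 8 groups called 4 genes of the list in place of 1, and it called 1 to 4 in all fits without 1 library. Over all genes the fit without library 2 called 6701 in place of 4705, and DESeq2 6935. The test called 4 of the list with DESeq2, and 2 with DESeq2 size factors in place of TMM. In SlWRKY71-KO5 against control, the 2 calls became 1 with the replicate block, 0 with only the groups compared and 0 against the mean of the groups altered in other genes, and were 0 to 2 without 1 library. Over all genes these fits called 1255, 863 and 1163 in place of 1425, and 455 to 1071 without 1 library. In SlWRKY71-KO4, the 1 call became 0 with no filter, with the replicate block, with only the groups compared and against the groups altered in other genes, and was 0 to 2 without 1 library. Over all genes these fits called 1034, 565, 1477 and 863 in place of 1266, and 222 to 1489 without 1 library. SlWRKY71-OX against both knockout lines had 3 calls, 1 with SlWRKY71-KO5 alone as reference and 1 to 3 without 1 library. Over all genes it had 4165 with SlWRKY71-KO5 alone and 2440 to 7334 without 1 library, in place of 5652. SlMYB41-KO against control had 1 call with no filter and 1 with DESeq2, and SlMYB92-KO had 1 against the groups altered in other genes, each in place of 0. Over all genes these fits called 949 and 1453 in place of 935 for SlMYB41-KO, and 652 in place of 525 for SlMYB92-KO. In the other 8 comparisons no gene of the list was called under any alternative run. The cause of these changes was not tested. Counts over all genes also moved: SlWRKY71-OX against control had 164 calls, but 29 with only the groups compared, 432 with DESeq2, 1809 against the MYB groups and 64 to 1607 without 1 library. DESeq2 gave 963 in place of 601 for SlMYB92-OX, 342 in place of 179 for SlMYB41-OX, 1453 in place of 935 for SlMYB41-KO and 2100 in place of 1266 for SlWRKY71-KO4, all against control. With only the groups compared, SlWRKY71-KO5 against control had 863 in place of 1425, and SlWRKY71-OX against both knockout lines 3621 in place of 5652.

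By mean correlation, libraries of different groups with the same column number did not deviate together (0.01, against 0 with different numbers). A correlation over 0.1 was found in 26 of 67 pairs with the same number and in 60 of 185 pairs with different numbers. Of 24 libraries, 7 correlated best with their own number, and no expected count was computed to set beside this. The block therefore rests on a shared number only; it changed the counts of list genes named above and no other such count, and gave 379 calls over all genes for SlMYB92-OX against control and 565 for SlWRKY71-KO4 against control. Depth limits AOS Solyc04g079730, with at most 11 counts in a library, and the JAZ loci Solyc12g009220 and Solyc03g122190, with at most 5 and 21.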
